A study of Pyrus syriaca and Pyrus pyrifolia and Pyrus communis with 12 samples.

Results

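The miR156 family of pear was followed here as 7 mature microRNA (miR) rows of a count table with 355 rows, of which 120 held a read. The 7 rows were taken by name from the apple (mdm) and strawberry (fve) references: fve-miR156a, fve-miR156g-3p, fve-miR156h, mdm-miR156a, mdm-miR156aa, mdm-miR156ab and mdm-miR156p. The table listed 11 miR156 rows in all. Of the 4 others, mdm-miR156t had 1 read, in the exudate of Golan, and 3 had none.

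In plants, miR156 is the regulator of the juvenile phase. It is abundant in young plants and declines with age, and it holds down transcription factors of the SQUAMOSA PROMOTER BINDING PROTEIN-LIKE (SPL) family, which promote the passage to adult leaves and to flowering. It guides Argonaute to a short complementary site in the SPL transcript. Arabidopsis names close relatives of the same family miR157, and miR172, which favours the adult phase, rises as miR156 falls.

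Small RNA was sequenced from the stigma, the pollen-receiving surface of the pistil, and from the exudate rinsed off the stigma without damage to it, at 12 hours after anthesis. The 6 genotypes were the Asian pear Pyrus pyrifolia (cultivars Hosui and Shinsui) and the European pear P. communis (cultivar Spadona), grown at 430 m, and the wild P. syriaca from 900 m (Golan), 450 m (Manara) and 830 m (SASA). There was 1 exudate and 1 stigma library per genotype, the exudate from many pooled flowers, so the spread between libraries of a tissue was a spread between genotypes. A small RNA table held no gene that marks stigma cells, so the tissue labels could not be checked, and in the stigma fewer cells holding a miR and less of it per cell cannot be told apart.

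The sequences showed that the members fall into a miR156 type and a miR157 type. The counts below are given by type, and whether the types differ between the tissues was not tested. Each is given 5′ to 3′ as the deposited table has it, with the seed, bases 2 to 8, in capitals. The 3 rows of the miR156 type come first.
fve-miR156a: uUGACAGAagagagugagcac
mdm-miR156a: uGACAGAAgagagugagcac
fve-miR156h: uGACAGAAgagagugagcuc
The 3 rows of the miR157 type share the segment gauagag, and the listed aliases of mdm-miR156aa and mdm-miR156ab include Arabidopsis miR157.
mdm-miR156aa: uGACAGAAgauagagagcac
mdm-miR156ab: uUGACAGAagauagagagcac
mdm-miR156p: cUGACAGAagauagagagcac
The last member is the other arm of the strawberry precursor whose 5p arm has the sequence of mdm-miR156ab, and mdm-miR156t, outside the members, stands between the types.
fve-miR156g-3p: gCUCUCUAugcuucugucauc
mdm-miR156t: uUGACAGAagagagagagcac

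The types differed in the middle of the miR and not in the seed. Positions are counted from 1 at the 5′ end of the first miR named. From mdm-miR156a to mdm-miR156aa the changes were G11U and U14A, and from fve-miR156a to mdm-miR156ab the same changes fell at G12U and U15A, since fve-miR156a starts 1 base earlier. Within the miR156 type, mdm-miR156a differed from fve-miR156h by A19U. Within the miR157 type, mdm-miR156ab differed from mdm-miR156p by U1C. The seed UGACAGA was shared by fve-miR156a, mdm-miR156ab and mdm-miR156p, and the seed GACAGAA by mdm-miR156a, fve-miR156h and mdm-miR156aa, so the 2 seeds were found in both types. The seed of fve-miR156g-3p, CUCUCUA, was found in no other member. The alignment allowed mismatches in 7% of the bases, which is 1 base here. A read of one row could therefore be counted for a row 1 base away, and the counts do not show how often this happened. Among the members only fve-miR156a and mdm-miR156a had equal counts, and these match over 20 bases with 0 mismatches. Rows of different types are at least 2 bases apart, but mdm-miR156t is 1 base from rows of each type. Per the authors' methods, a read could also be offset and overlap a miR only in part. It need not cover both bases that separate the types.

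The libraries were shallow. The exudates held 27 to 176 reads assigned to miRs (median 49.5, 422 in all) and the stigmas 199 to 1777 (median 653, 5276 in all). A count of 0 therefore allowed a share of up to 1.70% to 11.1% in an exudate, and of up to 0.169% to 1.51% in a stigma, taking 3 reads as the limit. These limits and the intervals below cover counting error only, since the reads carried no molecular identifiers. They also take the totals as distinct reads. The totals are sums over rows, so a read counted for several similar rows would enter them more than once.

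Reads of the miR156 type were found mainly in the exudates. The row mdm-miR156a had 4 reads in the exudate of Manara, 1 in Hosui, 1 in Spadona and 0 in Shinsui, Golan and SASA. In the stigmas it had 1 read, in Hosui, and 0 in the other 5 genotypes. The row fve-miR156a had the same count as mdm-miR156a in each of the 12 libraries, so both are treated below as 1 measurement. The third row of the type, fve-miR156h, had a single read, in the exudate of Hosui. The type was thus read in the exudates of 3 genotypes, one of each species, and in 1 stigma.

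Reads of the miR157 type were found in the stigmas alone, with 0 reads in each of the 6 exudates. The row mdm-miR156p had 1 stigma read in Hosui, 1 in Spadona, 3 in Manara and 2 in SASA, and 0 in Shinsui and Golan. The row mdm-miR156ab had 1 in Hosui, 1 in Shinsui and 4 in Manara, and 0 in the other 3. The row mdm-miR156aa had 2 in Manara and 1 in SASA, and 0 in the other 4. Hence 5 of 6 stigmas held a read of the type, and Golan, with 1657 miR reads, held none. The 3p arm, fve-miR156g-3p, had 1 read, in the exudate of Manara.

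**Figure D1:**
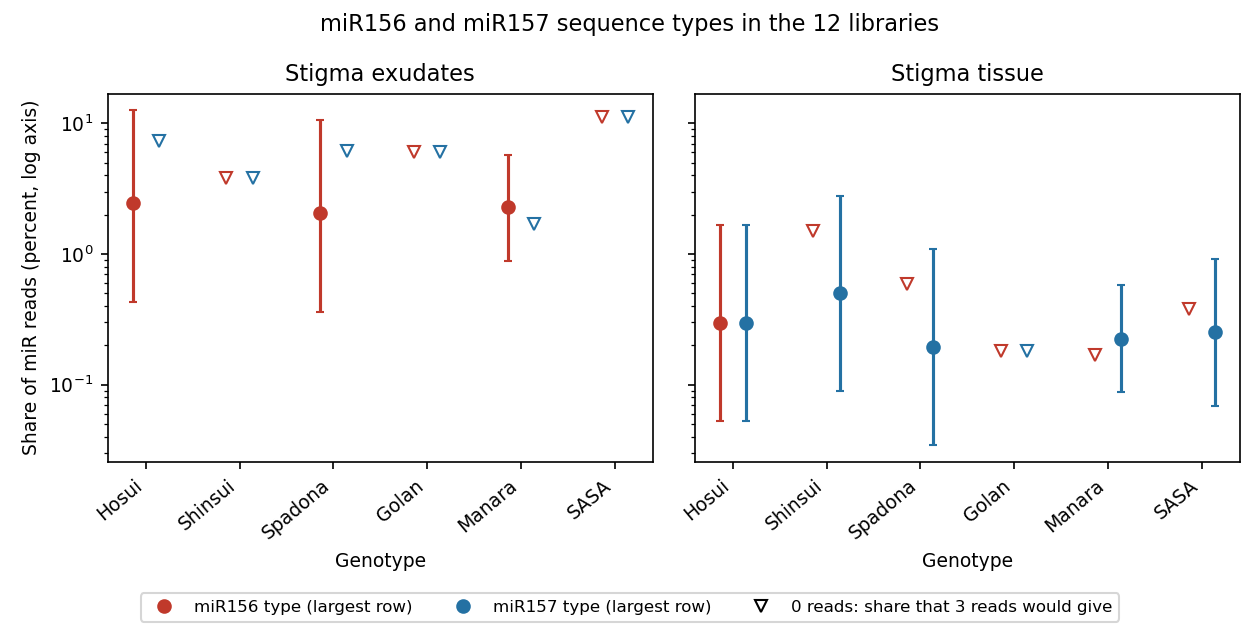
Share of miR reads (percent, log axis) of the row with the most reads of the miR156 type (red) and of the miR157 type (blue), for each genotype in exudates (left) and stigmas (right). Filled points are measured shares with 95% Wilson intervals, and open triangles mark libraries with 0 reads at the share that 3 reads would give. Red filled points stand in 3 exudates and 1 stigma, blue filled points in 0 exudates and 5 stigmas, and the open triangles of the exudates lie above the blue points of the stigmas.

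Within a genotype, only Manara set the exudate share of mdm-miR156a apart from its stigma share. There it took 2.27% of the exudate reads (4 of 176, 95% Wilson interval 0.887 to 5.70) and 0 of 1777 stigma reads, which allows up to 0.169%. In Hosui it took 2.44% of the exudate (1 of 41, 0.432 to 12.6) and 0.297% of the stigma (1 of 337, 0.0524 to 1.66), and the intervals overlapped. In Spadona it took 2.04% of the exudate (1 of 49, 0.361 to 10.7) and 0 of 512 stigma reads, which allows up to 0.586%. Over the 6 genotypes the mean share of mdm-miR156a was 1.13% ± 1.24 (SD, n = 6) in the exudates and 0.0495% ± 0.121 (n = 6) in the stigmas. Pooling the reads weights genotypes by depth and leaves out the spread between them. The ratio of the pooled shares was 75.0, with a 95% counting interval of 9.10 to 3450.5. Without Manara it was 28.4 (1.48 to 1678), and without Hosui there was no stigma read to form it.

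The absence of the miR157 type from the exudates was within what their depth allows. In Manara its largest row, mdm-miR156ab, took 0.225% of the stigma reads (4 of 1777, 95% Wilson interval 0.0876 to 0.577), while 0 reads in the exudate of Manara allow up to 1.70%. Were each exudate to carry the stigma share of its own genotype, the 422 exudate reads would hold 0.915 reads of mdm-miR156ab, 0.583 of mdm-miR156p and 0.232 of mdm-miR156aa. A lower share in the exudate was therefore not detectable at this depth.

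The comparison of exudate with stigma asks which miRs the secretion holds beyond its tissue of origin. By edgeR's quasi-likelihood test on library totals, with Benjamini-Hochberg adjustment over the 120 miRs, 4 miRs were called (3.33% of those tested), 3 higher in exudate (2.5%) and 1 lower (0.833%). The members called were fve-miR156a and mdm-miR156a, 2 rows with 1 set of counts, at 4.73 on the log2 scale, exudate over stigma (SE 1.14, adjusted p = 0.00190). In 3 genotypes the exudate share exceeded that of the stigma, and in the other 3 both were 0, so the groups overlapped. The other calls were mdm-miR390a, of the family that triggers small RNAs against auxin response factors (log2 fold change 4.87), and mdm-miR169a, a regulator of NF-YA genes (-3.50). The call of miR156a rests on 7 reads. It was lost without Manara (3.69, adjusted p = 0.251), under TMM scaling (3.13, adjusted p = 0.0690) and by DESeq2 (2.81, adjusted p = 0.279). The main fit did not pair the libraries by genotype. With genotype as a block the call was kept, at a larger p (4.66, edgeR adjusted p = 0.0184). The log2 fold change of miR156a lay between 2.81 and 5.63 over 11 fits, with adjusted p from 0.000426 to 0.279. The split of all calls also turned with the scaling, to 0 higher and 6 lower under TMM. The median of all miRs was -0.74 on library totals, -0.96 under TMM and -0.27 by DESeq2, and miR156a stood above it in each of these fits. Many miRs had 0 exudate reads, which fixes a value below 0 on library totals. Standing above the median therefore adds nothing to the call of miR156a.

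No other member passed the test. On the same scale of log2 fold change, exudate over stigma, fve-miR156h stood at 3.43 and fve-miR156g-3p at 3.22 (edgeR, adjusted p = 0.193 for each), each from 1 read. The 3 rows of the miR157 type stood at -2.71 for mdm-miR156p, -2.48 for mdm-miR156ab and -1.61 for mdm-miR156aa (edgeR, adjusted p = 0.719 for each), and their standard errors of 2.59, 2.58 and 2.17 were as large as the values or nearly so. With 0 exudate reads in each, the sign of these 3 values was fixed by the counts. The difference between the types was not tested.

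**Figure D2:**
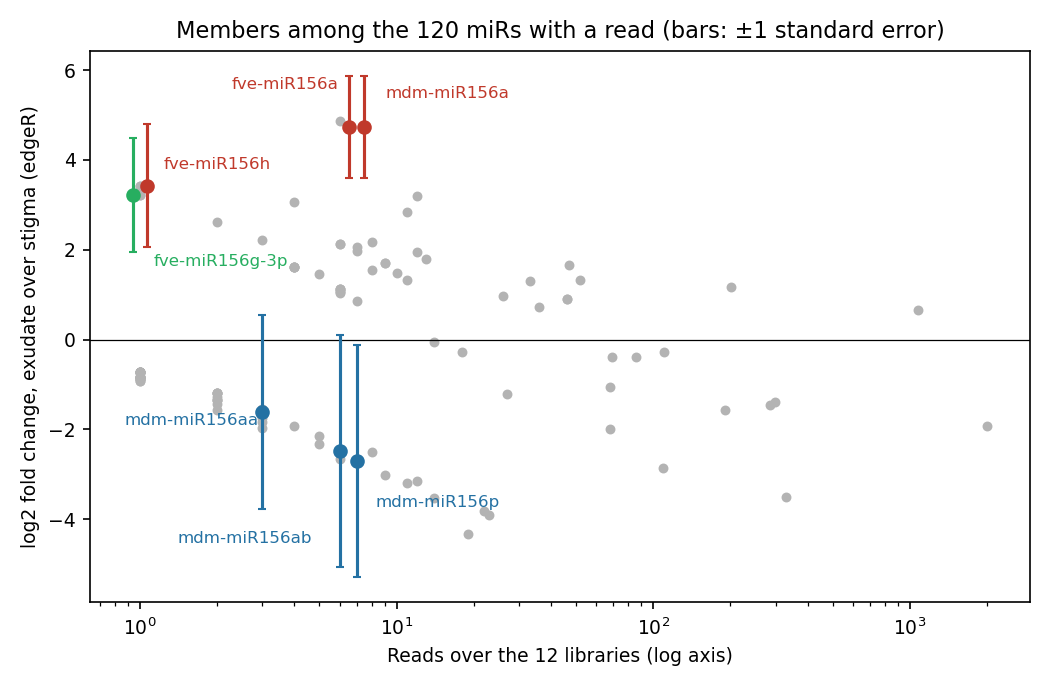
Log2 fold change of exudate over stigma (edgeR on library totals) against the number of reads over the 12 libraries (log axis), with 1 point for each of the 120 miRs with a read and bars of 1 standard error for the members; members with the same number of reads are set slightly apart sideways. The rows fve-miR156a and mdm-miR156a lie at 4.73 beside mdm-miR390a at 4.87, and the 3 blue rows of the miR157 type lie below 0 among other miRs with few reads.

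Shares were also compared genotype by genotype. An exact sign-flip permutation test over the 6 genotypes, two-sided, cannot give a p below 0.03125. Adjustment could be passed only if most of the 120 miRs stood at that p. That 0 of 120 passed (0%, with 4 at an unadjusted p under 0.05) is therefore no evidence of equal shares. The share of mdm-miR156a was higher in the exudate by 1.08 percentage points ± 1.18 (SD, n = 6, exact p = 0.25, adjusted p = 0.769). That of mdm-miR156p was -0.152 percentage points ± 0.126, lower in 4 genotypes and equal in 2 (exact p = 0.125, adjusted p = 0.769). That of mdm-miR156ab was -0.171 percentage points ± 0.208, lower in 3 (exact p = 0.25, adjusted p = 0.769). Genotypes at 0 in both tissues add nothing to this test, and for mdm-miR156a there were 3 of them. Each exact p given here for a member was the smallest that its other genotypes allow, so the test could not have called these rows.

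As a family, the 7 rows held 14 of 422 exudate reads and 18 of 5276 stigma reads. The mean share was 2.75% ± 3.19 (SD, n = 6, range 0 to 7.32%) in the exudates and 0.462% ± 0.405 (n = 6, range 0 to 1.19%) in the stigmas. The sum counts fve-miR156a and mdm-miR156a each, and with equal rows counted once the exudate mean was 1.63% and the stigma mean 0.412%. Rows of the miR157 type share sequence as well. They summed to 16 stigma reads, and the largest row of each library to 9, so the sum may count some reads more than once. The spread between exudates exceeded their mean, with reads in 3 of 6.

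By the presence rule of the study, at least 2 reads in a library, fve-miR156a and mdm-miR156a were present in the exudates through Manara and had a single stigma read. Under that rule they count neither as common to both tissues nor as exudate-specific. The rows mdm-miR156aa, mdm-miR156ab and mdm-miR156p were stigma-specific, and fve-miR156g-3p and fve-miR156h were present in neither tissue. With 1 read as the limit, 4 members were present in the exudates and 5 in the stigmas. With 2 libraries required, 0 and 1 were, the one being mdm-miR156p. In the exudates and stigmas alike, presence at 2 reads thus rested mostly on Manara, the deepest library of each tissue.

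Between wild and cultivated stigmas no member differed beyond the spread. By edgeR, 1 of 114 miRs was called (0.877%), mdm-miR482d, of a family that targets resistance genes (log2 fold change -2.45, wild over cultivated, adjusted p = 0.0386), and 0 of the 5 members tested. The log2 fold changes were 2.61 for mdm-miR156aa (SE 2.70, edgeR adjusted p = 0.792) and -1.07 for mdm-miR156ab (1.48, 0.796). They were -0.55 for mdm-miR156p (1.41, 0.805) and -2.97 for mdm-miR156a (2.15, 0.652), read in Hosui alone. The 3 reads of mdm-miR156aa were in wild stigmas, at 0.113% in Manara and 0.126% in SASA. In Spadona, the deepest cultivated stigma, 0 reads allow up to 0.586%, so its absence there was within depth. Wild and cultivated stigmas also differ in species, site and altitude, which cannot be told apart. The sign of mdm-miR156p turned to 0.59 by DESeq2 and to 0.074 without Golan. No member had the 10 stigma reads set as the minimum for an exact permutation test.

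Related families of the age pathway were read in both tissues. Of the miR172 family, which targets APETALA2-like factors downstream of SPL, 5 of 6 rows had a read. The rows mdm-miR172a and mdm-miR172m had 2 exudate and 4 stigma reads each and mdm-miR172d 2 and 6, with the exudate reads in Manara, whereas mdm-miR172i and mdm-miR172l had 2 stigma reads each. Counts of mdm-miR172a and mdm-miR172m were equal in every library, as were those of mdm-miR172i and mdm-miR172l. Each of these pairs may therefore be 1 measurement. Of miR535, a relative of miR156 by sequence, mdm-miR535a had 2 exudate and 9 stigma reads and mdm-miR535d 2 and 5, and fve-miR535a and mdm-miR535b had 1 stigma read each. No row was named miR157 or miR529. No row of these families passed the edgeR test between tissues.

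The miRs most like the members over the 12 libraries, by Bray-Curtis dissimilarity of counts (0 for equal counts), were few-read rows too. For mdm-miR156a they were mdm-miR172a, mdm-miR172m and mdm-miR390a, at 0.538 each, with equal counts of mdm-miR172a and mdm-miR172m in every library. For mdm-miR156p they were mdm-miR11010 at 0.0769, mdm-miR7122a at 0.25 and mdm-miR10994-5p at 0.273, all 3 with 0 exudate reads. For mdm-miR156ab they were mdm-miR10994-5p at 0.2 and mdm-miR10995 at 0.273, followed by 5 miRs tied at 0.333. These values describe shared libraries and depth, and with 6 or 7 reads a member they carry little weight.

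Predicted targets were listed for the stigma-specific members alone, because the study submitted to prediction the miRs it kept. The targets are Arabidopsis transcripts, matched in the files to locus numbers only. The SPL names used here come from a fixed list of 11 Arabidopsis SPL genes known to carry a miR156 site. Of these, 10 were predicted targets, and each of mdm-miR156aa, mdm-miR156ab and mdm-miR156p had the same 10. They were SPL2 (AT5G43270), SPL10 (AT1G27370) and SPL11 (AT1G27360), which shape lateral organs in the reproductive phase, SPL9 (AT2G42200) and SPL15 (AT3G57920), which time the phase change and the pace of leaf initiation, SPL4 (AT1G53160) and SPL5 (AT3G15270), small SPL proteins that promote flowering, SPL13A (AT5G50570) and SPL13B (AT5G50670), a duplicated pair acting in vegetative development, and SPL6 (AT1G69170), which acts in immunity. The remaining one, SPL3 (AT2G33810), a flowering promoter next to SPL4 and SPL5, was not listed. Of 6 SPL genes that lack a miR156 site, 0 were listed. Prediction lists a transcript by its complementary site, and both gene lists were set by that site. These counts were thus largely fixed beforehand and are no test of the members.

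The SPL loci made up most of the targets of these members. The row mdm-miR156p had 10 pairings, all with SPL loci, mdm-miR156aa had 14, of which 10 were with SPL loci, and mdm-miR156ab had 16, of which 10 were. The 8 other loci were AT2G05020 and AT5G08620, listed for mdm-miR156aa and mdm-miR156ab, then AT2G34960 and AT5G18590 for mdm-miR156aa, and AT1G32140, AT2G39710, AT2G45990 and AT4G28660 for mdm-miR156ab. In all, the 3 members held 40 of the 163 pairings of the stigma table and 18 of its 120 loci. No SPL locus was listed for another stigma miR, in the exudate table or among the 25 pollen-expressed loci. The pollen loci were drawn from the exudate targets, and no member had targets among those.

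The pairings turned on a single site, printed 5′ to 3′ as in the target transcript, with the base that stays unpaired in capitals.
mdm-miR156aa site: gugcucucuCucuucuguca
mdm-miR156ab site: gugcucucuCucuucugucaa
mdm-miR156p site: gugcucucuCucuucugucaA
The first was found in 14 of 14 pairings of mdm-miR156aa, the second in 13 of 16 of mdm-miR156ab and the third in 8 of 10 of mdm-miR156p. The unpaired C faces the U that marks the miR157 type, base 11 of mdm-miR156aa and base 12 of mdm-miR156ab and mdm-miR156p. In mdm-miR156p base 1, a C, was unpaired as well.

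The miR156 type has no row in the target tables, so its pairing with this site was worked out here from the sequences. With the 21 bases of the site of mdm-miR156ab, fve-miR156a paired at 20 of 21 bases, the exception being base 15, and mdm-miR156a at 19 of 20, the exception being base 14. The rows mdm-miR156ab and mdm-miR156aa paired at 20 of 21 and 19 of 20, so both types leave 1 base unpaired, at a different place. The row fve-miR156h paired at 18 of 20 and mdm-miR156p at 19 of 21, whereas mdm-miR156t paired at 21 of 21. The 4 miR535 rows paired at 13 or 14 of 21 and fve-miR156g-3p at 5 of 21. This is a count of base pairs and not a prediction of cleavage, and pear transcripts were not analysed here.

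The site positions and locus numbers of the target table could not be matched row by row. Pairings of mdm-miR156aa and mdm-miR156ab shared 12 site start positions, and 0 of these were at a shared locus. For mdm-miR156aa and mdm-miR156p it was 1 of 6 and for mdm-miR156ab and mdm-miR156p 4 of 9. The loci are therefore given above as lists for each miR, and no site is tied to a single SPL gene.

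In the deposited Gene Ontology (GO) lists, the SPL loci were spread over most stigma terms. They were 10 of the 120 stigma target loci. In the stigma table, with 49 terms, 43 terms held an SPL locus and 31 held all 10. In the exudate table, with 29 terms, 0 did. That 0 was fixed beforehand, since the exudate targets held 0 SPL loci and no member had targets among them, and it shows no difference between the tissues. The stigma lists hold the loci of all stigma-specific miRs, so an SPL locus could enter them only through the members. Among developmental terms, flower development had 16 loci, 7 of them SPL2, SPL4, SPL5, SPL9, SPL13A, SPL13B and SPL15. The same 7 were among the 25 loci of reproductive structure development, the 25 of post-embryonic development and the 28 of reproductive process. Anatomical structure development and developmental process had 37 loci each with 9 SPL loci, all but SPL6, and multicellular organism development had 35 with 8, lacking SPL6 and SPL11.

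Some other lists held few SPL loci or none. Anatomical structure morphogenesis had 19 loci with 2 SPL loci, SPL9 and SPL10, and cell differentiation (15 loci), embryo development (11) and growth (9) had 0. Of the functional terms, DNA binding had 48 loci with all 10 SPL loci, and the nucleus, the compartment of transcription factors, had 65 with all 10. None of the 8 non-SPL loci of the members was in a developmental list. These counts describe how the lists overlap, and no test of them was made.

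**Figure D3:**
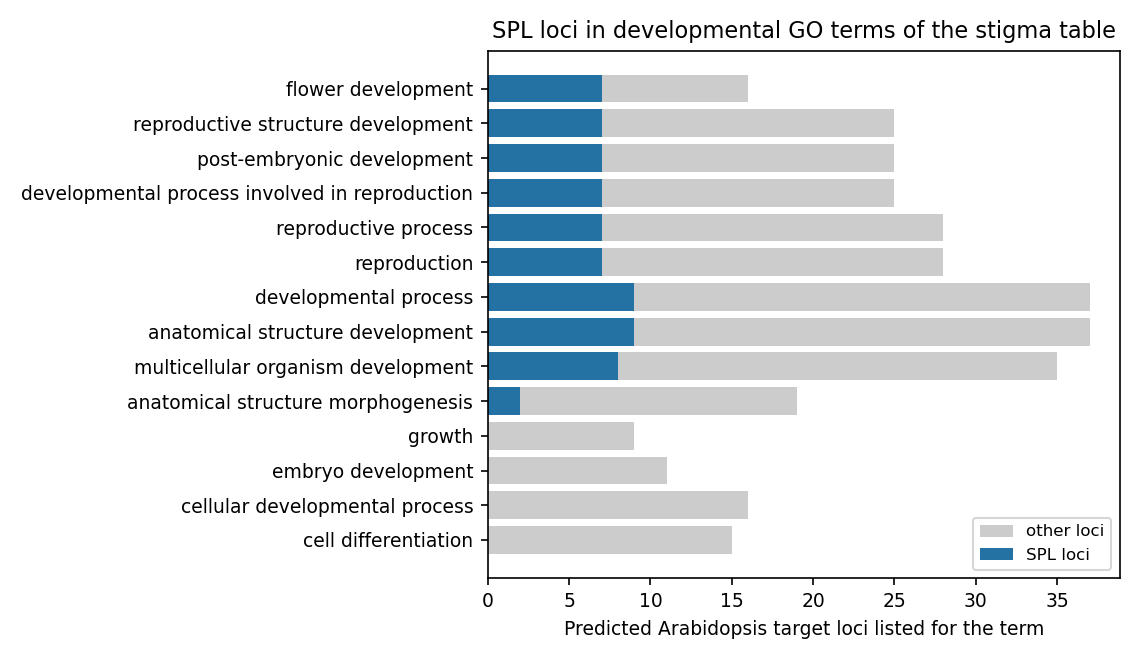
Number of predicted Arabidopsis target loci (horizontal axis) in the GO terms of the stigma table named for reproduction, development, morphogenesis, differentiation or growth, with SPL loci in blue and other loci in grey, and terms ordered by the share of SPL loci. Flower development is at the top with 7 SPL loci of 16, and growth, embryo development, cellular developmental process and cell differentiation have 0.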

How the data were processed

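Per the authors' methods, reads were trimmed with cutadapt 1.1, quality-filtered with FASTX and aligned by miRExpress to miRBase miRs of apple, strawberry and peach, with up to 7% mismatches. The deposited counts are raw reads for each unique mature sequence, and the authors averaged a sequence listed more than once. Targets were predicted by psRNATarget on Arabidopsis TAIR transcripts, and the deposited positions of sites carry no expectation value. The deposited GO tables also hold the authors' p-values and FDR from agriGO, which were not used. GO terms were therefore named by their SPL loci or their name, and not by the smallest p as planned. The genome builds of the precursors are not given in the sources used here, and no coordinate is printed.

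Samples were grouped by the labels. The wild populations are named after sites that the methods give for their altitudes. Exudate and stigma were paired by genotype, as the labels give it. As a check, 2 of 6 exudates were closest to their own stigma (r from -0.0587 to 0.589 over 35 miRs). Counts were tested with edgeR 4.0.16 in R 4.3.3 (glmQLFit, glmQLFTest, library totals, each miR with a read, FDR of 0.05), and the standard error was taken as the log2 fold change over the root of F. DESeq2 1.42.0, TMM, filterByExpr, a genotype block, totals without mdm-miR482d and leaving out libraries were alternatives. Shares were compared by exact sign flips in Python 3.11.15 (numpy 2.4.6, pandas 2.3.3, scipy 1.17.1). The edgeR fit was checked on simulated counts. The sign flips were checked on simulated normal values, which lack the zeros of these data. Depth was 27 to 176 miR reads in an exudate and 199 to 1777 in a stigma. Named were all members, their loci, miR172 and miR535 rows with a read, and the 3 closest miRs (ties included) of members with at least 5 reads. Members and lists were chosen with earlier results of these data known.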

Additional observations from a re-analysis of the deposited data

Results flagged for a closer look

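In 4 of the 11 groups of 6 libraries looked at, a single library stood above 5 libraries at 0 reads. The rule used always marks a group with reads in 1 library alone, so a chance rate of 1 in 20 does not apply here. Each mark is 1 read in an otherwise empty group. The share of mdm-miR156a in the stigma of Hosui was 0.297%, as was that of fve-miR156a, which has the same counts. The share of fve-miR156h in the exudate of Hosui was 2.44%, and that of fve-miR156g-3p in the exudate of Manara was 0.568%. Their cause was not tested.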

How the results depend on the processing

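Between exudate and stigma, 4 miRs were called, against 10 by DESeq2 (0 higher and 10 lower), 0 of the 3 that filterByExpr left (2 at an unadjusted p under 0.05, no member among them) and 1 to 5 with a genotype left out, the 1 being without Manara. With genotype as a replicate block 5 were called, and the call of miR156a was kept. Between wild and cultivated stigmas, 1 was called, against 2 by DESeq2, 4 under TMM, 0 by filterByExpr (3 of 8 at an unadjusted p under 0.05), 2 for P. syriaca against P. pyrifolia alone and 0 to 3 with a library left out. It was 0 without Hosui, Golan or Manara, 2 without Spadona and 3 without SASA. With the replicate block for P. syriaca and P. pyrifolia, where the number pairs no plants, 0 were called by edgeR (9 at an unadjusted p under 0.05). The value of mdm-miR156p there turned to 0.59 by DESeq2, which gave it no adjusted p, and to 0.074 without Golan, and with a library left out it lay between -1.01 and 0.074. The cause of these changes was not tested. Members present went from 2 to 4 (exudate) and from 3 to 5 (stigma) with 1 read as the limit, and to 0 and 1 with 2 libraries required. The stigma family share of 0.462% was 0.929% with mdm-miR482d left out of the totals, and 0.316% to 0.554% with a genotype left out, while that of the exudates, 2.75%, was 4.88% without mdm-miR482d and 1.84% to 3.30% with a genotype left out. Over all alternatives, 18 counts or shares moved, 6 values of miR156a (2 equal rows in 3 fits) lost their call and 2 signs turned. The other 194 values stayed on the same side of the threshold or near the main value, with a value lacking an adjusted p by DESeq2 taken as not called. A limit of 1 unpaired base, chosen after seeing the data as were the pooled ratios without a genotype, could not change the count of 10 SPL loci, since every pairing of mdm-miR156aa has 1. Limits on the expectation could not be run, since the table has no such column.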
